A study of Homo sapiens with 18 samples.

Results

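MicroRNA genes were followed through the peak lists of a CUT&Tag study of chromatin in A549 cells, an established human lung adenocarcinoma line. All 1911 genes of biotype miRNA on chromosomes 1 to 22 and X in the RefSeq gene table of GRCh38.p14 were taken, of 59094 genes in that table on the same chromosomes. They are short, with a median length of 80 bp, so each was widened by 1 kb to either side. A gene was held by a list when a peak overlapped that window by at least 1 bp. The windows of 1188 microRNA genes were held by at least 1 of 12 lists.

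In CUT&Tag an antibody bound to chromatin brings in a transposase, which cuts and tags the DNA nearby. The lists came from WT A549 cells, from A549 cells with a YTHDF1 knockout (YTHDF1-KO) and from A549 cells with an siRNA knockdown of ARID1A (siARID1A), each profiled with an antibody against YTHDF1 and with an antibody against ARID1A. There were 2 libraries per antibody and condition, which the labels do not tie to separate cultures. The p-values therefore speak of the spread from library to library alone, and that spread may be technical. Neither the 6 normal IgG samples nor a combined condition mentioned in the design were analysed here, so no background level from a control antibody stands beside the values. The sources used here do not say whether the knockout is 1 clone or how far ARID1A fell. YTHDF1 binds N6-methyladenosine in RNA, and ARID1A is a DNA-binding subunit of the BAF (SWI/SNF) chromatin remodelling complex. The anti-YTHDF1 lists of YTHDF1-KO cells held 50774 and 46225 peaks, between the 57764 and 40562 of the WT lists, so the lists do not check the knockout label. Over the series, anti-YTHDF1 lists held 40562 to 59632 peaks and anti-ARID1A lists 71271 to 106882, and the sequencing depth behind them is unknown.

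A microRNA gene is transcribed as part of a longer primary transcript, either its own or that of a host gene in whose intron or exon it lies. The hairpin is cut out in the nucleus and trimmed in the cytoplasm to a mature strand, which guides a silencing complex to messenger RNAs. Pairing rests mainly on the seed, so microRNAs with the same seed form a family, and several hairpins can be cut from 1 transcript as a cluster. A peak beside a hairpin can therefore lie on the transcribed body, on a nearby regulatory element or on a neighbouring gene. The start of the transcript can be far away. Peak lists do not measure expression, so no microRNA is called expressed or silent here.

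The sequences below group the microRNAs on which the results turn by seed, bases 2 to 8 from the 5′ end, shown in capitals. They are mature strands from RefSeq with GRCh38.p14 positions, and 1558 of the 1911 genes (81.5%) had a hairpin in that table. The first set is the let-7 family, known as repressors of RAS and other growth genes. Let-7a-5p is made by 3 genes and is placed at MIRLET7A1. These 5 strands share 1 seed, while their genes ranged from 0 to 12 lists.
let-7i-5p (chr12:62603691-62603712, + strand): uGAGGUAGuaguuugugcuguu
let-7b-5p (chr22:46113691-46113712, + strand): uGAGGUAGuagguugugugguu
let-7e-5p (chr19:51692793-51692814, + strand): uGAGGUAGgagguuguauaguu
let-7a-5p (chr9:94175962-94175983, + strand): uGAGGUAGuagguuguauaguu
let-7g-5p (chr3:52268336-52268357, - strand): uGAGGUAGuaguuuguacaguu

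The second set holds the seeds of the miR-17-92 cluster, a MYC-linked group of growth microRNAs, and of its copies on chromosomes X and 7. The chromosome 7 copy lies in an intron of MCM7, a subunit of the replicative helicase.
miR-17-5p (chr13:91350618-91350640, + strand): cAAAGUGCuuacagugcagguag
miR-20a-5p (chr13:91351072-91351094, + strand): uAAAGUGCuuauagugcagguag
miR-106a-5p (chrX:134170244-134170266, - strand): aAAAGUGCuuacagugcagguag
miR-106b-5p (chr7:100094043-100094063, - strand): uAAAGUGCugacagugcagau
miR-93-5p (chr7:100093815-100093837, - strand): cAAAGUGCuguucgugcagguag
miR-92a-3p (chr13:91351361-91351382, + strand): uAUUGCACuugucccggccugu
miR-363-3p (chrX:134169382-134169403, - strand): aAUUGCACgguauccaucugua
miR-25-3p (chr7:100093571-100093592, - strand): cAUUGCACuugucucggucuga

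The third set shows the 2 seeds of the miR-200 family. This family keeps cells in an epithelial state by repressing ZEB1 and ZEB2. Each of its 2 loci carries both seeds.
miR-200b-3p (chr1:1167160-1167181, + strand): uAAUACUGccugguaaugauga
miR-429 (chr1:1169055-1169076, + strand): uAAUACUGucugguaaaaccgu
miR-200c-3p (chr12:6963742-6963764, + strand): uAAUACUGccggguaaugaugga
miR-200a-3p (chr1:1167916-1167937, + strand): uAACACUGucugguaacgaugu
miR-141-3p (chr12:6964155-6964176, + strand): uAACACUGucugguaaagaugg

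The fourth set holds the miR-15/16 and miR-181 seeds, each made from loci that differed widely in the lists. MiR-16-5p is made by 2 genes and is placed at MIR16-2, and miR-181a-5p at MIR181A1.
miR-15a-5p (chr13:50049167-50049188, - strand): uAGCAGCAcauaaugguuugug
miR-16-5p (chr3:160404754-160404775, + strand): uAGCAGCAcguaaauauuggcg
miR-195-5p (chr17:7017667-7017687, - strand): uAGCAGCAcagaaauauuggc
miR-497-5p (chr17:7017979-7017999, - strand): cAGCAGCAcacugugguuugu
miR-181c-5p (chr19:13874725-13874746, + strand): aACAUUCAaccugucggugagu
miR-181d-5p (chr19:13874910-13874932, + strand): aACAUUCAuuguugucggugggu
miR-181a-5p (chr1:198859108-198859130, - strand): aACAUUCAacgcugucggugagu

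The last set holds microRNAs with strong peaks, or with more lists of anti-ARID1A than of anti-YTHDF1, whose seeds are shared by 3 or fewer genes. MiR-338-3p and miR-3065-5p are read from opposite strands of the same stretch. MiR-196a-5p is placed at MIR196A2.
miR-22-3p (chr17:1713914-1713935, - strand): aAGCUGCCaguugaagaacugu
miR-338-3p (chr17:81125887-81125908, - strand): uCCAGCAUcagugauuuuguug
miR-3065-5p (chr17:81125886-81125908, + strand): uCAACAAAaucacugaugcugga
miR-21-5p (chr17:59841273-59841294, + strand): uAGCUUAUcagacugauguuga
miR-193b-3p (chr16:14304017-14304038, + strand): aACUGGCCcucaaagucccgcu
miR-137-3p (chr1:98046091-98046113, - strand): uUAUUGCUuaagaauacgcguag
miR-196b-5p (chr7:27169528-27169549, - strand): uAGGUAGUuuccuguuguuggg
miR-196a-5p (chr12:53991762-53991783, + strand): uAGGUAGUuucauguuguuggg

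MicroRNA genes were found in both antibodies' lists, more often in those of anti-ARID1A. Anti-YTHDF1 lists held 567 and 421 microRNA genes in WT, 464 and 427 in YTHDF1-KO and 538 and 535 in siARID1A cells. Anti-ARID1A lists held 808 and 877, 840 and 842, and 610 and 675 in the same order. As shares of the 1911 genes these are 25.7 ± 3.28% for anti-YTHDF1 and 40.6 ± 5.61% for anti-ARID1A (mean ± SD, n = 6 each). The 2 sets of libraries did not overlap, and the difference of 14.8 percentage points had an exact two-sided permutation p of 0.00216, the smallest that 6 against 6 can give (0.00433 after Benjamini-Hochberg adjustment over 6 antibody comparisons). Within WT, YTHDF1-KO and siARID1A cells the difference was 18.2, 20.7 and 5.55 points, each with the smallest p that 2 libraries against 2 allow (exact permutation, 0.333). Genes of all kinds showed nearly the same gap, 49.0 ± 4.10% with anti-ARID1A against 34.5 ± 2.84% with anti-YTHDF1, a difference of 14.5 points (exact permutation p = 0.00216, n = 6 each).

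List length moves with the antibody. When every list was cut to its 40562 peaks of highest total signal, anti-YTHDF1 lists held 21.0% to 26.6% of the microRNA genes and anti-ARID1A lists 25.6% to 35.4%, so the sets then overlapped and the difference was 8.12 points (exact permutation p = 0.00433, n = 6 each). Genome bins of 2080 bp, the width of a typical microRNA window, were held at 4.07% to 6.23% and at 7.21% to 14.3%. Relative to these bins, which include assembly gaps, microRNA genes were held 4.87 ± 0.274 times as often by anti-YTHDF1 and 3.61 ± 0.523 times as often by anti-ARID1A lists (exact permutation p = 0.00216, n = 6 each). The order of the antibodies thus turned in this ratio. Over the 12 lists, however, the ratio largely fell as the share of bins rose. It went from 5.41 at 4.07% of bins (WT anti-YTHDF1 replicate 2) to 3.21 at 14.3% (WT anti-ARID1A replicate 2). The ratio therefore does not remove the breadth of a list, and no antibody difference is read from its p. Of the genes held, the peak covered part of the hairpin itself in 50.9% to 64.7% with anti-YTHDF1 and in 64.8% to 78.8% with anti-ARID1A.

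**Figure D1:**
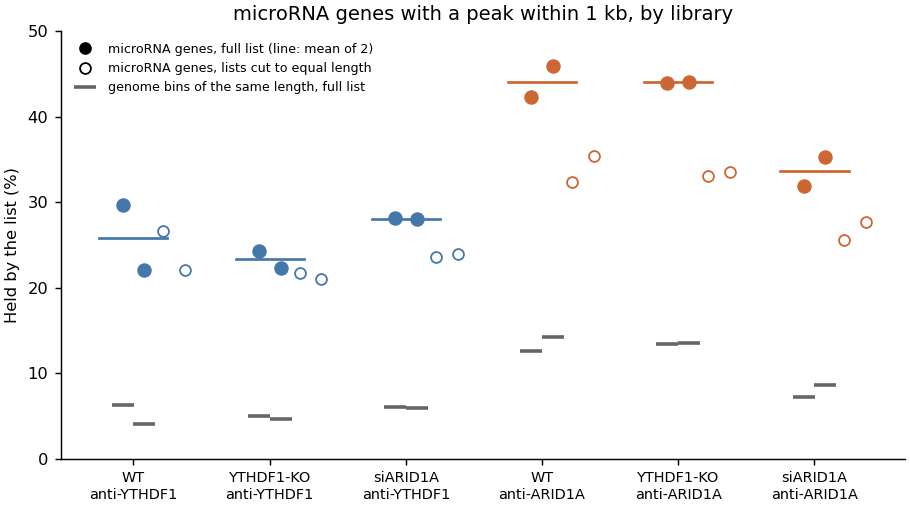
Percent of the 1911 microRNA genes with a peak within 1 kb in each of the 12 lists (filled points, with the mean of 2 libraries as a line), in lists cut to 40562 peaks (open points), and percent of genome bins of 2080 bp held (grey dashes). The 6 anti-ARID1A libraries lie above the 6 anti-YTHDF1 libraries in full lists, with siARID1A the lowest of the former at 31.9% and 35.3%.

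Across libraries 165 microRNA genes (8.63%) were in all 12 lists, against 16.2% of all genes of the table, which are mostly far longer, and 0.784% of the bins. At the other end 723 (37.8%) were in no list, against 31.2% of all genes and 72.9% of bins. The 165 genes lie at 142 separate loci. Of these genes 108 lie in a protein-coding host, 28 in a lncRNA host and 29 in neither. All 6 anti-ARID1A lists held 493 microRNA genes and all 6 anti-YTHDF1 lists held 169. A microRNA gene in an anti-YTHDF1 list was usually in an anti-ARID1A list too. In anti-YTHDF1 lists alone were 91 genes, 79 of them in only 1 list, and in anti-ARID1A lists alone 285. Anti-ARID1A lists were longer and held more of the bins. No share over all genes or bins is given for the 493, 169, 91 and 285. Whether this imbalance is particular to microRNA genes was therefore not tested.

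Strength was read as the percentile of a peak's total signal within its own list, where 100 is the strongest peak, because the deposited signal has a scale of its own in each library. Where several peaks touched a window the highest percentile was taken. Total signal was not divided by width, so a wide peak can rank high. Peaks at microRNA genes had a median width of 1388 bp with anti-YTHDF1 and 2638 bp with anti-ARID1A. The medians of the full lists were 1120 and 1496 bp (means of 6 libraries). Among the 165 genes the 10 with the highest mean percentile included 3 on chromosome 8, MIR661 in PLEC, MIR6846 in OPLAH and MIR10400 in ZFTRAF1. MIR338, MIR3065 and MIR657 lie together in AATK on chromosome 17, where MIR338 ranged from 99.51 to 99.97 over the anti-YTHDF1 lists (median 99.77) and from 99.65 to 99.97 over the anti-ARID1A lists (median 99.76). MIR3190 and MIR3191 lie on opposite strands in BBC3, which encodes the p53-induced death factor PUMA, and ranged from 99.2 to 99.8 with anti-YTHDF1 and from 99.93 to 99.97 with anti-ARID1A. Their lowest value in any list was that of MIR10400, at 95.0, so they stood near the top of every list, whichever the condition. The other 2 of the 10, MIR12136 and MIR4485, lie in nuclear copies of mitochondrial DNA, beside MTCO1P12, MTCO2P12 and MTATP8P1 on chromosome 1 and MTRNR2L8 on chromosome 11. Their percentiles were 99.63 or above in every list, and reads from mitochondria and from such copies cannot be told apart in these lists. MIR1973, beside the copy MTRNR2L13 on chromosome 4, was in 0 lists.

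MIR22, a tumour-suppressive microRNA cut from the MIR22HG transcript, was close behind. Its peak stood at 99.1 to 99.6 in the anti-YTHDF1 lists (median 99.5) and at 98.6 to 99.3 in the anti-ARID1A lists (median 99.0). MIR22 lies 2223 bp from the start of MIR22HG, whose start was also in all 12 lists.

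The growth-repressing let-7 family was split by locus. Of 12 members 1 was in all 12 lists, 7 were in none and 4 lay between, against 8.63% and 37.8% for all microRNA genes. MIRLET7I was in all 12, with percentiles of 65.2 to 87.7 (median 81.5) in anti-YTHDF1 and 84.7 to 95.1 (median 87.2) in anti-ARID1A lists. MIRLET7B and MIRLET7A3, neighbours on chromosome 22, were in all 6 anti-ARID1A lists, with a median percentile of 99.8, and in 5 and 4 anti-YTHDF1 lists. MIRLET7E was in all 6 anti-ARID1A lists and in 2 anti-YTHDF1 lists, both from siARID1A cells. MIRLET7A1, MIRLET7F1 and MIRLET7D on chromosome 9, MIRLET7C, MIRLET7G, MIRLET7F2 and MIR98 were in no list. The mature let-7a strand shown above can therefore come from a gene held by 10 lists (MIRLET7A3), by 1 (MIRLET7A2) or by none (MIRLET7A1).

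The miR-17-92 paralogues were split in the same manner. All 6 hairpins in MIR17HG on chromosome 13 were in no list, and the 6 on chromosome X were in 1 list, that of the second YTHDF1-KO anti-ARID1A library, through a weak peak at percentile 9.18. The MCM7 copy stood apart. MIR106B, MIR93 and MIR25 were in all 6 anti-ARID1A lists, at 39.8 to 96.3 (median 93.6). With anti-YTHDF1, MIR106B was in 4 lists and MIR93 and MIR25 in 3, none of them from WT cells.

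The epithelial miR-200 family was in most lists. Of its 5 members 3 were in all 12 lists and all 5 in all 6 anti-ARID1A lists. MIR200A and MIR200B in MIR200BHG had percentiles of 62.0 to 98.7 (median 91.6) with anti-YTHDF1 and 92.8 to 98.1 (median 95.1) with anti-ARID1A. MIR200C, 454 bp from the start of MIR200CHG, ranged from 3.24 to 97.9 (median 88.8) and from 59.0 to 99.3 (median 97.998), so its peak was weak in at least 1 anti-YTHDF1 library. MIR429 was missing from 1 anti-YTHDF1 list and MIR141 from 2.

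Among other growth and stress microRNAs the copies of a family also differed. MIR15A, MIR16-1, MIR15B and MIR16-2, of the BCL2-repressing miR-15/16 family, were in 0 lists, while MIR195 and MIR497 were in all 6 anti-ARID1A and 4 anti-YTHDF1 lists. MIR23A, MIR27A and MIR24-2 in MIR23AHG were in 11 lists, at a median percentile of 99.98 in the anti-ARID1A lists and at least 98.4 in each. Their copies MIR23B and MIR27B on chromosome 9 were in none and MIR24-1 was in 1. MIR34A, a p53 target, was in 2 anti-YTHDF1 and 4 anti-ARID1A lists, at percentiles of 62.9 or less. MIR29A was in 7 lists and MIR29B1 in 5, while MIR29B2 and MIR29C were in 2 each.

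Of 21 cancer- and stress-linked microRNAs of epithelium, 4 were in all 12 lists, 4 in none and 13 between. The cluster of MIR182, MIR183 and MIR96, known from sensory cells, was in all 12. MIR21, a common oncogenic microRNA in VMP1, was in all 6 anti-ARID1A lists at percentiles of 99.7 to 99.9, and in 1 anti-YTHDF1 list, from siARID1A replicate 1, at 89.9. MIR210, the hypoxia-induced microRNA, was in 6 anti-ARID1A and 4 anti-YTHDF1 lists. MIR221 and MIR222 were in no list, and MIR31 was in 1 of each antibody. MIR193B was in all 6 anti-ARID1A lists, at 83.1 to 99.1 (median 98.3), and in 0 anti-YTHDF1 lists, while its neighbour MIR365A was in 6 and 5.

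Lists of microRNAs typical of other tissues were mixed as well, and their members here are described by locus only. Of 12 immune and haematopoietic microRNAs 3 were in all 12 lists (MIR150, and the erythroid pair MIR144 and MIR451A) and 7 were in none, among them MIR155, MIR146A and MIR223. Of 16 neuronal microRNAs 1 was in all 12 (MIR9-3), 3 were in none and 12 lay between. Of 9 muscle microRNAs 1 was in all 12 (MIR133A2), with MIR1-1 in 11, and 4 were in none. Of 11 hepatocyte, lens and germline microRNAs 0 were in all 12 and 6 were in none, among them the liver microRNA MIR122 and the pluripotency cluster MIR302A to MIR302D with MIR367. Among the 6 HOX-cluster microRNAs MIR196B was in all 6 anti-ARID1A and 0 anti-YTHDF1 lists, MIR196A2 and MIR615 in 6 and 3, and MIR10B in none.

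**Figure D2:**
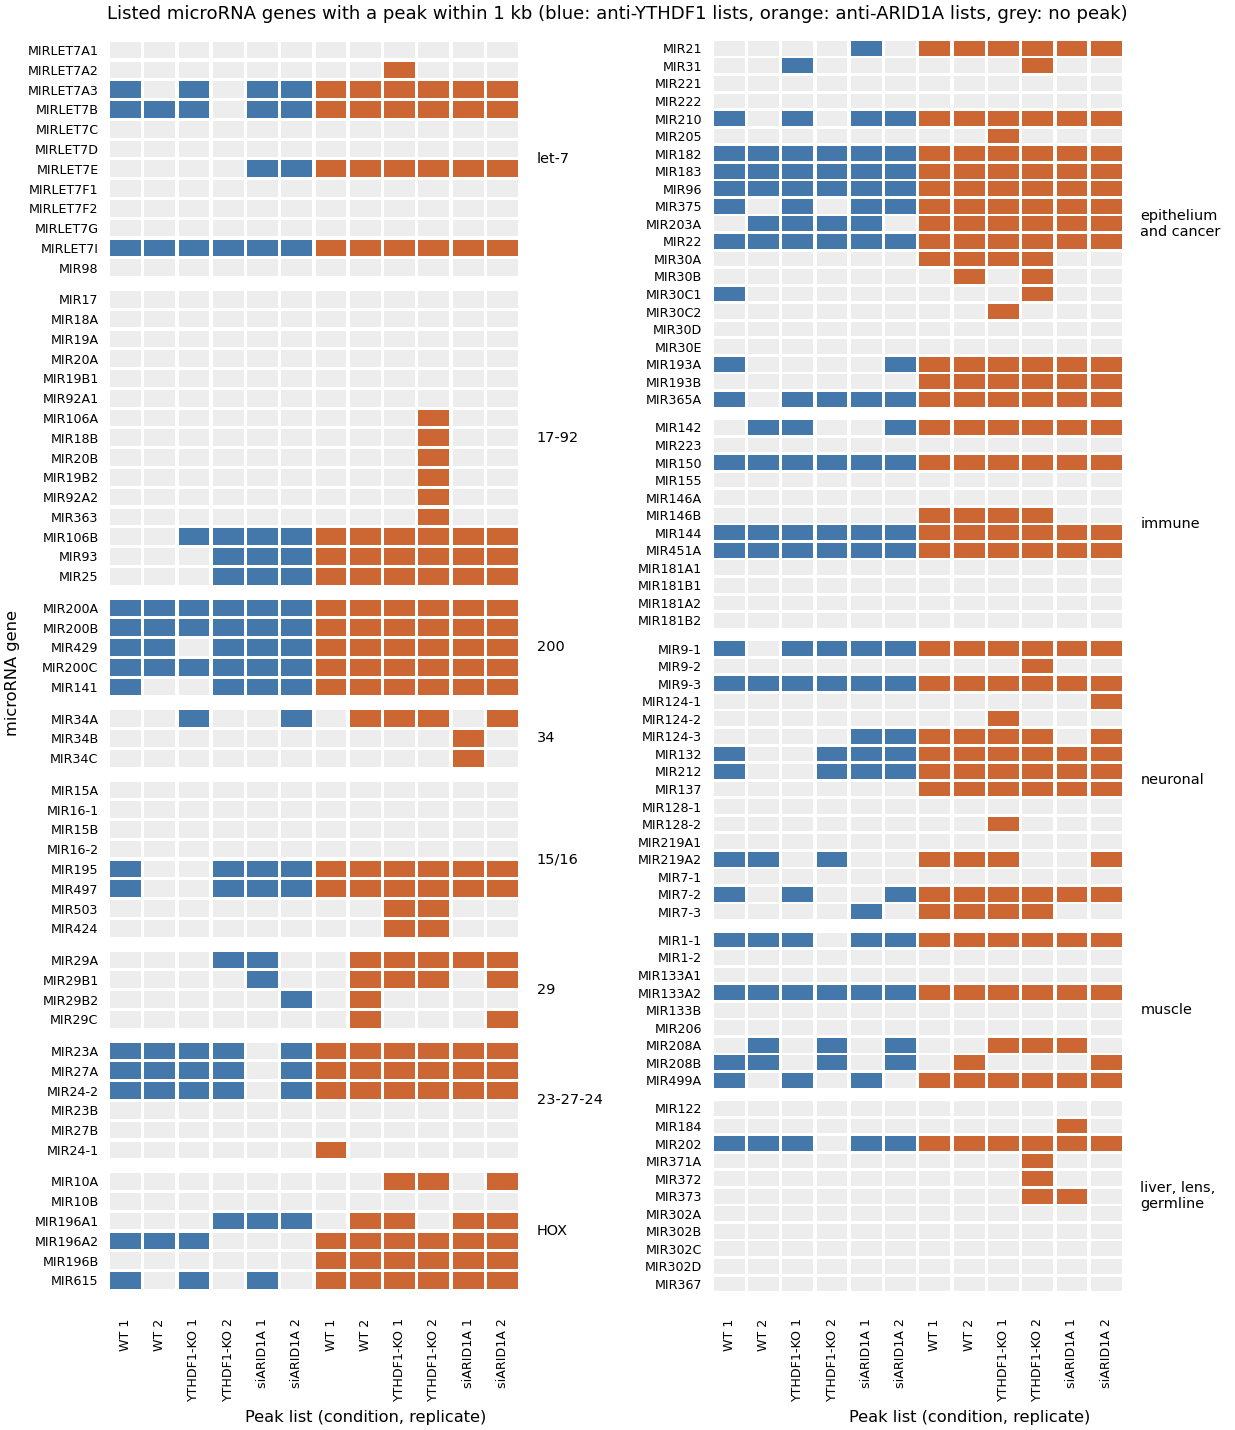
Listed microRNA genes (rows, grouped by family or tissue) against the 12 peak lists (columns), with blue for a peak within 1 kb in an anti-YTHDF1 list, orange for one in an anti-ARID1A list and grey for none. The miR-200 rows are filled almost throughout, while the MIR17HG rows, MIR17 to MIR92A1, are empty.

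Loci that share a seed were also counted together, without a comparison to unrelated loci. The table held 2541 mature strands of 1734 genes, and 88 seeds were made from at least 3 loci. Of these seeds 8 had both a locus in all 12 lists and a locus in none, 37 had every locus in at least 1 list and 6 had no locus in any. The let-7 seed has 10 loci, 1 in all 12 lists and 6 in none. The miR-92 seed has 6 loci, 1 in all 12 lists and 3 in none. The miR-15/16 seed has 5 loci, 0 in all 12 and 2 in none, with up to 10 lists at a locus.

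MicroRNA genes near a gene start were in more lists than those far from any. Distance was taken to the nearest of 34961 listed starts of protein-coding and lncRNA genes, which left out chromosome 8 and gave 1821 microRNA genes a value. Within 1 kb of a start 52.3 ± 8.60% of microRNA genes were held by anti-YTHDF1 and 78.0 ± 4.88% by anti-ARID1A lists (n = 6 libraries each). From 20 to 100 kb the shares were 14.2 ± 2.77% and 25.7 ± 5.84%, and beyond 100 kb 5.38 ± 0.959% and 10.3 ± 3.49%. The median distance was 3.34 kb for the genes in all 12 lists and 40.4 kb for those in none.

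Base composition of the hairpin followed the same order. Where G and C made up less than 40% of the hairpin, 7.32 ± 0.978% of genes were held by anti-YTHDF1 and 15.1 ± 3.36% by anti-ARID1A lists, and at 70% or more 67.0% and 88.1% were. The order was also present among genes over 20 kb from a listed start. There the shares for anti-YTHDF1 were 3.30% under 50% GC, 15.2% from 50% to 60% and 40.2% at 60% or more, and for anti-ARID1A 9.02%, 30.2% and 59.6%. Fewer than 80% of the genes in no list (78.3%) and of the intergenic genes (78.4%) had a hairpin in the table, so no median GC is given for them. CUT&Tag libraries are amplified, and the part of amplification in this order was not tested.

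**Figure D3:**
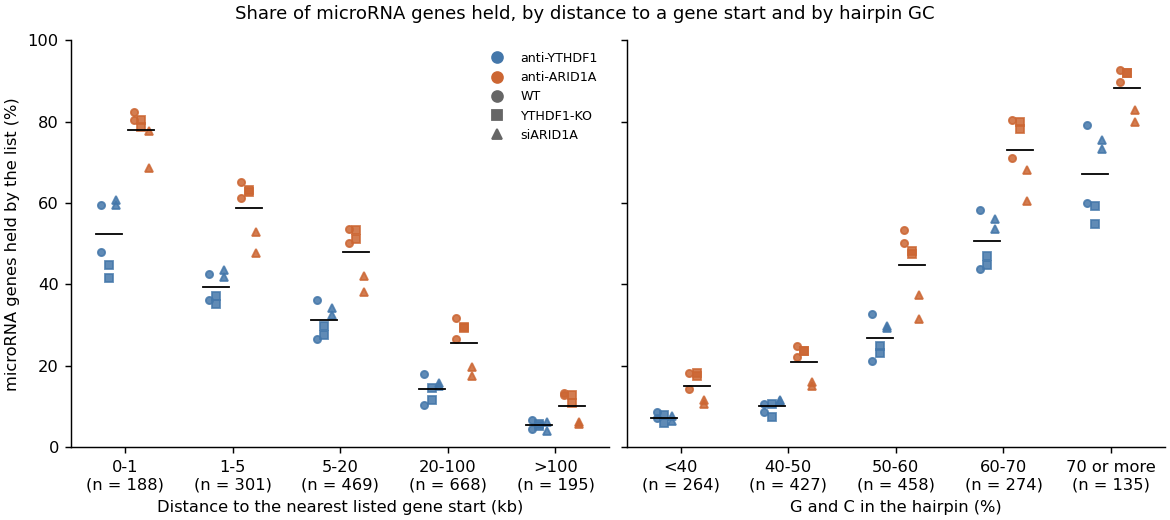
Percent of microRNA genes held by each list, by distance from the nearest listed gene start in kb (left) and by percent G and C in the hairpin (right). Points are libraries, coloured by antibody and shaped by condition, and black lines are means of 6, which fall from 78.0% to 10.3% with distance for anti-ARID1A and rise with GC for both antibodies.

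Of the 1911 genes 1486 lie within a host gene, 1203 of them in a protein-coding host and 283 only in a lncRNA, and 425 are intergenic. A host here is any such gene whose span takes in the microRNA gene, on either strand. The host was on the same strand for 841 and on the opposite strand for 162, while 69 had hosts on both. For 414 the strand was not given, so a host need not carry the hairpin in its transcript. Host-gene microRNAs were held more often in every library. With anti-YTHDF1 27.1 ± 3.27% of them were held against 21.1 ± 3.56% of intergenic genes, a difference of 5.93 ± 1.47 points (6 of 6 libraries, 3.52 to 8.16). With anti-ARID1A the shares were 42.2 ± 5.58% and 34.7 ± 5.76%, a difference of 7.54 ± 0.988 points (6 of 6 libraries, 6.13 to 8.48). Each has an exact sign-flip p of 0.0312, the smallest that 6 libraries can give, and 0.0529 after Benjamini-Hochberg adjustment over the 22 differences between classes of microRNA gene that were computed, none of which came under 0.05.

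Hosts of the 2 kinds were also taken apart. Protein-coding hosts exceeded intergenic genes by 6.89 points with anti-YTHDF1 and 9.56 with anti-ARID1A, 6 of 6 libraries each (exact sign-flip p = 0.0312, adjusted 0.0529). Hosts that are lncRNAs differed from intergenic genes by 1.83 points (5 of 6 libraries, exact sign-flip p = 0.219, adjusted 0.253) and by -1.02 points (higher in 1 of 6, exact p = 0.281, adjusted 0.309). The difference between the 2 kinds of host was not tested. With no flank around the hairpin the difference between all host-gene and intergenic microRNAs was 3.562 points with anti-YTHDF1. A protein-coding gene end here means either limit of the gene, so starts of transcription are included. A window counted as at an end when such a limit lay within it or within a further 1 kb. Away from protein-coding gene ends the host difference was 6.21 and 9.25 points, in 6 of 6 libraries each. Over 5 kb from a listed start it was 3.47 and 5.87 points, again in 6 of 6 libraries (exact p = 0.0312, adjusted 0.0529, for these 4 values), and within 5 kb 7.22 and 4.50 points, in 5 of 6 each (exact p = 0.0938, adjusted 0.121). Host microRNAs were also closer to starts, at a median of 15.6 kb against 28.6 kb, and these splits are the only test made of that distance. Among single microRNA genes the host difference was 7.49 and 8.89 points, and among clustered ones 1.77 (3 of 6 libraries, exact p = 0.594) and 3.46 points (6 of 6, exact p = 0.0312, adjusted 0.0529). Windows at a protein-coding gene end were held at 54.7% and 78.0%, other windows at 19.3% and 32.2%, again in 6 of 6 libraries each (exact p = 0.0312, adjusted 0.0529). Hosts on the same strand as the microRNA differed from hosts on the opposite strand by -1.99 points with anti-YTHDF1 and -1.89 with anti-ARID1A (exact p = 0.0625 and 0.156, adjusted 0.0917 and 0.191), over 841 and 162 genes with a known host strand.

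**Figure D4:**
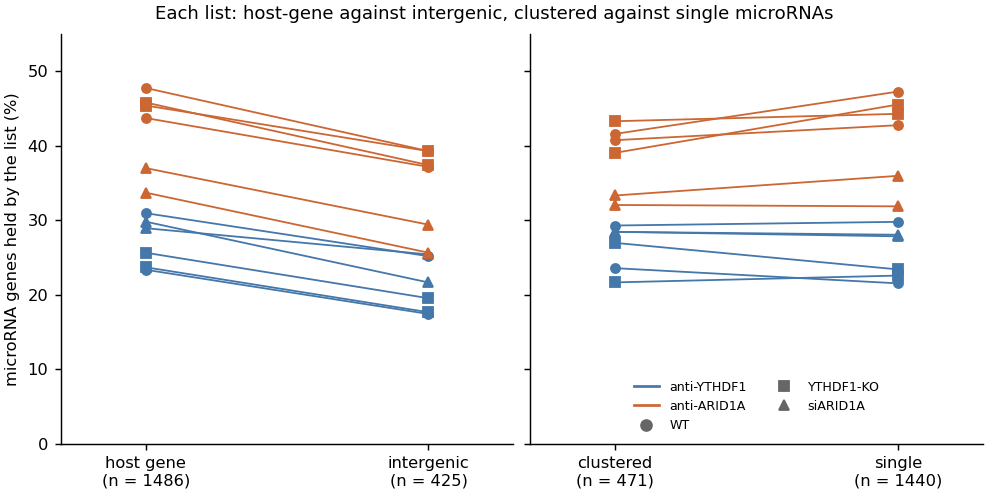
Percent of microRNA genes held by each of the 12 lists, as lines joining host-gene to intergenic genes (left) and clustered to single genes (right), coloured by antibody. All 12 lines fall from host-gene to intergenic, while those from clustered to single go both ways.

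Clusters were taken as microRNA genes with at most 10 kb between neighbours, which gave 155 clusters of 471 genes and 1440 single genes. Clustered and single genes were held alike by anti-YTHDF1 to within 0.865 ± 1.67 points (exact sign-flip p = 0.312, adjusted 0.327, higher in 4 of 6 libraries). With anti-ARID1A clustered genes were lower by 2.94 ± 2.63 points on average, in 5 of 6 libraries (exact p = 0.0625, adjusted 0.0917). With 50 kb between neighbours clustered genes were higher by 9.655 points with anti-YTHDF1 and by 7.52 with anti-ARID1A, so for anti-ARID1A the sign depends on the definition. Small and large clusters differed, with no test made. Clusters of 2 to 4 genes were held at 34.4% by anti-YTHDF1 and 49.2% by anti-ARID1A, and the 145 genes in clusters of 5 or more at 8.51% and 13.9%. Members of a cluster often share a peak, and 102 of the 155 clusters had all members held by exactly the same lists, 12 of them by all 12 and 51 by none.

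Of the 11 clusters of 5 or more genes, 3 were in no list. MIR17 to MIR92A1, MIR367 to MIR302B on chromosome 4 and MIR892C to MIR891B on chromosome X are these 3. The placental chromosome 19 cluster from MIR512-1 to MIR519A2, of 46 genes, had 2 members in 1 anti-YTHDF1 list. On chromosome X, MIR363 to MIR106A had its 6 members in 1 list, MIR532 to MIR502 had 2 members in 1 list and MIR450B to MIR424 had 3 members in 2 lists, both YTHDF1-KO anti-ARID1A. The imprinted chromosome 14 region held 2 clusters that did appear. MIR379 to MIR656, of 42 genes, had 9 and 13 members in the WT, 8 and 12 in the YTHDF1-KO and 2 and 0 in the siARID1A anti-ARID1A lists, and between 0 and 9 in the anti-YTHDF1 lists. MIR493 to MIR136, of 8 genes, had at least 3 members in every anti-ARID1A list. MIR941-1 to MIR941-5, copies within DNAJC5 on chromosome 20 that share 1 mature strand, were in 5 lists of each antibody. MIR3689C to MIR3689F on chromosome 9 had all 7 members in 3 anti-YTHDF1 lists (WT replicate 1 and both of siARID1A) and 5 and 7 in the WT anti-ARID1A lists. The other 7 lists had 0, among them all 4 of YTHDF1-KO, both siARID1A anti-ARID1A lists and WT anti-YTHDF1 replicate 2. The WT anti-ARID1A peaks there were weak, at percentiles of 4.13 and 4.67 (MIR3689C), and lie on the distal part of chromosome 9 where earlier results of these data showed shifts between conditions.

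A hairpin and the start of its host could differ. For 1065 microRNA genes a start of a host was listed, on the strand of the microRNA where that was known. A list held the start when a peak lay within 1 kb of any such start. Different starts of a host could thus count in different lists, while a hairpin had only its own window. By this count the start was in all 12 lists for 247 (23.2%) and in none for 104. The hairpin was in all 12 for 87 and in none for 376. The start was in all 12 lists and the hairpin in none for 31 genes, and the reverse was found for 0. Where the host start was in all 12 lists, 87.4% of hairpins were in at least 1 list, and where it was in none, 15.4% were. Among the 780 genes over 5 kb from the nearest such start, where the windows cannot overlap, these shares were 81.8% and 17.3%.

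Dedicated microRNA hosts, the lncRNA genes named MIR...HG, were also looked at gene by gene. Of 68 that hold a microRNA, 9 had a start in all 12 lists and 13 had no start in any, a host with several starts being counted once. Counted per start, 10.5% of their 86 listed starts were in all 12 lists and 27.9% in none, close to the 10.6% and 26.7% of all listed starts. Of the 9 hosts with a start in all 12 lists, MIR1-1HG, MIR200CHG, MIR22HG, MIR4733HG and MIRLET7IHG also had a hairpin in all 12. MIR193BHG and MIR23AHG had a hairpin in 11, and only 1 of the 9 had none in any list. Most hosts named next are ones where start and hairpin differed. The MIRLET7A1HG start was in all 12 lists and its 3 hairpins, 9699 bp or more away, were in none. The MIR29B2CHG start was also in all 12, with MIR29C and MIR29B2 in 2 lists each. The MIR222HG start was in all 6 anti-ARID1A and 0 anti-YTHDF1 lists, and the hairpins MIR221 and MIR222 were in none. MIR31HG had its start in 6 anti-ARID1A and 3 anti-YTHDF1 lists, and MIR17HG in 3 and 1. The MIR155HG start and MIR155 were both in 0 lists. The converse was seen at MIR137HG, whose start was in 2 lists and whose hairpins MIR137 and MIR2682 were in 6.

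A start from each of 3 patterns is printed from 250 bases before to 50 after the start (RefSeq, GRCh38.p14, in the direction of transcription). Capitals mark TGANTCA, the AP-1 motif, searched on both strands. MIRLET7A1HG has 38 CpG pairs in this window, MIR222HG 11 and MIR155HG 20, and only MIR155HG has the motif, 1 time. Over all listed starts 7.68% hold the motif, and over the 86 listed starts of these hosts 7 do. Starts in all 12 lists hold a median of 26 CpG pairs and starts in no list 3.
MIRLET7A1HG (chr9:94166008-94166307, + strand): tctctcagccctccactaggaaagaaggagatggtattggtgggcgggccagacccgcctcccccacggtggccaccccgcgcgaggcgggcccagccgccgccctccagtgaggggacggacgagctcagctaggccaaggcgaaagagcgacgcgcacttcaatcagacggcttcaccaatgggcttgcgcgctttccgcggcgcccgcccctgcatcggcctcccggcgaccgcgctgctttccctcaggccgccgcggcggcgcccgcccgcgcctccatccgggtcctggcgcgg
MIR222HG (chrX:45770218-45770517, - strand): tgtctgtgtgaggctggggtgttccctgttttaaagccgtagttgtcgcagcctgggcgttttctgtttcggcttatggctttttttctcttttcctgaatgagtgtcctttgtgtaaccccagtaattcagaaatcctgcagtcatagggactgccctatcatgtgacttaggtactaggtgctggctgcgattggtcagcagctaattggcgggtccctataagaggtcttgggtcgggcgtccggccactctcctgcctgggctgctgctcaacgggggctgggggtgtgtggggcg
MIR155HG (chr21:25561895-25562194, + strand): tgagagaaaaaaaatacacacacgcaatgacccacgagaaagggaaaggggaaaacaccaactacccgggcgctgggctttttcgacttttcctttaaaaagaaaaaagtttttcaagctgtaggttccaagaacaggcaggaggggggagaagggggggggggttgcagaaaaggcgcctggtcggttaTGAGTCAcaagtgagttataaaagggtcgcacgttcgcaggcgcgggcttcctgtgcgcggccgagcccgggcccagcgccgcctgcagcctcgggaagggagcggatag

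**Figure D5:**
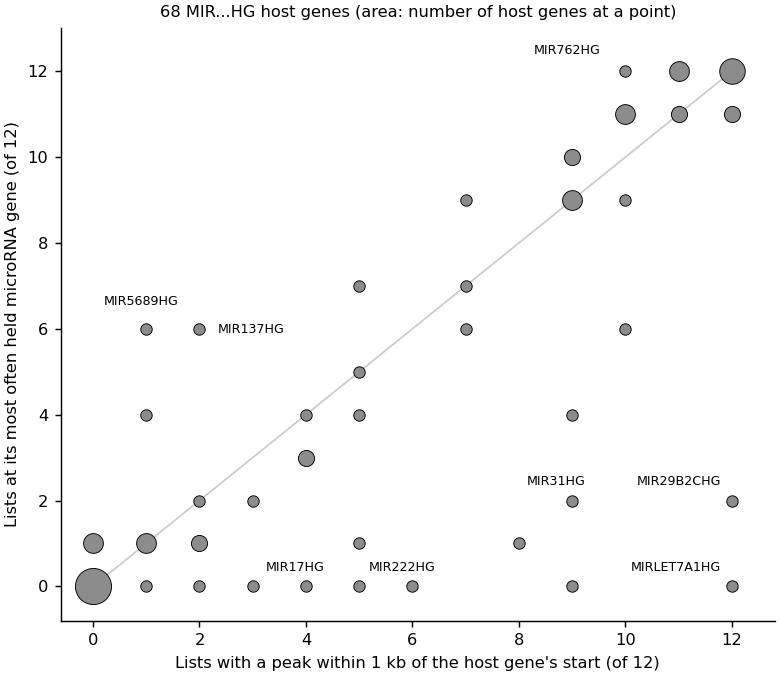
For 68 MIR...HG host genes, the number of lists with a peak within 1 kb of any listed start of the host (horizontal) against the number at its most often held microRNA gene (vertical). The area shows how many hosts share a point. The grey line marks equal numbers, and MIRLET7A1HG lies at 12 and 0.

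The antibodies were compared gene by gene with Fisher's exact test of 6 lists against 6, adjusted by the Benjamini-Hochberg method over the 31106 genes that 1 to 11 lists hold. Of 1023 microRNA genes tested 0 passed in either direction, against 0% of all genes tested, and the smallest adjusted p was 0.129. Fisher's exact test of 6 lists against 6 cannot give a p below 0.00216. After adjustment over 31106 genes, even a fully separated gene could pass only if very many others were fully separated too. The 0 therefore says nothing on whether single microRNA genes differ. At an unadjusted p under 0.05, 59 microRNA genes (5.77%) leaned to anti-ARID1A, against 7.08% of all genes tested, and 0 to anti-YTHDF1, against 0.0354%. In all 6 anti-ARID1A and no anti-YTHDF1 list were 19 microRNA genes, 0.994%, against 0.88% of all genes of the table and 0.371% of bins. The reverse held for 0 microRNA genes, 0.00508% of all genes and 0.000755% of bins. These shares are close to those of all genes.

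Of the 19, MIR193B had the strongest peaks. MIR4472-2 on chromosome 12, 80098 bp from a listed start, ranged from 91.3 to 96.2 (median 94.3) and MIR4756 in BCAS1 from 90.4 to 94.2 (median 91.4). MIR5689 in its host MIR5689HG ranged from 88.6 to 94.0. MIR7848 in TG, MIR5703, MIR5695 and MIR6795 in NOTCH3 followed. MIR137, a neuronal microRNA, shared with MIR2682 a peak of 30.4 to 82.4 (median 53.1) over the same 6 lists. MIR584 in SH3TC2 and MIR196B in the HOXA cluster had medians of 63.4 and 59.2.

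Knockdown of ARID1A went with fewer microRNA genes in the anti-ARID1A lists. They held 33.6 ± 2.41% in siARID1A against 44.1 ± 2.55% in WT cells (n = 2 each), a difference of -10.47 points, with no overlap between the pairs of libraries (exact permutation p = 0.333, the smallest possible). Genes of all kinds were also held less often, at 43.9 ± 1.76% against 51.4 ± 1.80%, a difference of -7.41 points, again with no overlap. The share of bins was 13.4% in WT and 7.90% in siARID1A cells, so the fold of microRNA genes over bins was 3.29 in WT and 4.27 in siARID1A cells. In YTHDF1-KO cells the anti-ARID1A lists held 44.0 ± 0.0740%, within the WT range. With anti-YTHDF1 the share was 25.9 ± 5.40% in WT, 23.3 ± 1.37% in YTHDF1-KO and 28.1 ± 0.111% in siARID1A cells, and both sets overlapped the WT libraries, which themselves spanned 22.03% to 29.67%. The difference from WT with anti-YTHDF1, -2.54 points in YTHDF1-KO and 2.22 in siARID1A cells, turned to 1.28 without WT replicate 1 and to -1.60 without WT replicate 2 respectively. With anti-ARID1A, YTHDF1-KO minus WT was -0.0785 points and 1.73 without WT replicate 2. Both conditions are compared with the same WT libraries.

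In the anti-ARID1A lists 102 microRNA genes (5.34%) were in both WT and neither siARID1A list, against 3.73% of all genes and 2.72% of bins, and 3 (0.157%) showed the reverse, against 0.337% and 0.104%. Of the 738 microRNA genes in both WT lists 13.8% were thus lost, beside 7.99% of all such genes and 27.5% of such bins. In lists of equal length 65 genes were lost and 5 gained, with no share over all genes at that length to set beside them. MIR181C and MIR181D, neighbours near NANOS3 on chromosome 19, had WT percentiles of 99.98 and 97.9. MIR554 in TUFT1 had 95.2 and 97.6. MIR1303 in LARP1, MIR6836 in SNX8, MIR7111 in RPL10A and MIR6769B in IKBKE were next. MIR181A1, MIR181B1, MIR181A2 and MIR181B2, which make miR-181a and miR-181b with the same seed as MIR181C and MIR181D, were in no list of any condition. MIR10396A, at 99.8 and 99.7, lies 228538 bp from any listed start on chromosome 21 and has a copy, MIR10396B, on the same chromosome, so its call is uncertain. The 3 of the reverse pattern were MIR7704 in the HOXD cluster, MIR10399 in ZC3HAV1 and MIR4441 in HDAC4.

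In YTHDF1-KO cells 35 microRNA genes (1.83%) were lost from the anti-ARID1A lists in this manner, against 1.18% of all genes and 0.832% of bins, and 24 (1.26%) were gained, against 1.15% and 0.69%. Leading the former were MIR3680-1, MIR4747 in UHRF1 and 4 genes of the imprinted chromosome 14 clusters, MIR433, MIR369, MIR409 and MIR412. Of the 35, 13 lie on chromosome 2, distal chromosome 9 or distal chromosome 17, where earlier results of these data showed shifts between conditions. Without them 22 genes were lost and 22 gained, and the excess of losses was also gone in the upper 50% of each list (23 lost, 27 gained) and with clusters counted once (21 and 20). The chromosome parts were picked from these same data, so leaving them out is no independent check. The share of all microRNA genes in these parts, and all-gene shares under these settings, are not given here. The gained genes were led by MIR6863 in SLC12A3, MIR6876 in DOCK5 and MIR10A in HOXB3, whose percentiles were 60.2 and 65.3, and included MIR542 of the MIR450B to MIR424 cluster.

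In the anti-YTHDF1 lists 42 microRNA genes (2.20%) were in both WT and neither YTHDF1-KO list, against 1.87% of all genes and 0.475% of bins, and 18 (0.942%) showed the reverse, against 1.38% and 0.291%. MIR3944 in ECHS1, at 95.5 and 95.8, MIR4479 in TRAF2, MIR6737 in SLC39A1 and MIR4444-1 led the losses, which also took in MIR9898 in the keratin gene KRT8 and the pair MIR2861 and MIR3960. MIR6510 in KRT15, at 95.5 and 75.6, MIR6738, MIR5187 and MIR422A led the gains. The percentages over microRNA genes lie near those over all genes in both directions. Of the 338 microRNA genes in both WT anti-YTHDF1 lists, 199 were also in both YTHDF1-KO lists. No share over all genes is given for the 199, and what the antibody met in the knockout cells was not tested.

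After ARID1A knockdown 21 microRNA genes (1.10%) left the anti-YTHDF1 lists, against 0.985% of all genes and 0.288% of bins, and 35 (1.83%) entered them, against 1.94% and 0.504%. The balance turned in lists of equal length (32 left and 28 entered) and in the upper 50% of each list (32 and 24). For these settings no share over all genes is given. Those that left were led by MIR12121 in CEP170B, MIR12128 in GSE1, MIR4647 and MIR196A2 of the HOXC cluster, at 82.5 and 78.8, and included MIR219A2 and MIR219B. Those that entered were led by 2 clusters. MIR125A, MIR99B and MIRLET7E in SPACA6 shared a peak at 96.5 and 81.8, and MIR106B, MIR25 and MIR93 shared a peak at 91.7 and 85.6. Both clusters were in all 6 anti-ARID1A lists. MIR106B was also in both YTHDF1-KO anti-YTHDF1 lists, at 65.5 and 32.2, so WT cells alone lacked it in that antibody's lists.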

How the data were processed

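Peak lists of 12 CUT&Tag libraries of A549 cells were used, 1 list per library, with groups and replicate numbers from the sample titles. Per the submitters' processing notes, the tools were SEACR 1.3, deepTools 3.5.2, bedtools 2.30.0, Bowtie2 2.4.2, fastp 0.23.2 and SAMtools 1.9, and the builds hg38 and GRCh38. The sources used here do not give their settings or say whether IgG served in peak calling. The deposited lists give each peak's position, total signal and highest signal, on a scale the authors set per library, so signal was used only as a percentile within a list. The depth of the libraries is unknown, so counting intervals are left out.

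Autosomal and X-linked peaks were overlapped with microRNA genes widened by 1 kb (RefSeq GRCh38.p14). Python 3.11.15, pandas 2.3.3, numpy 2.4.6 and scipy 1.17.1 were used. The RefSeq gene table gives no strand, so host strand and starts came from the RefSeq hairpin and promoter tables. Library shares were compared by exact two-sided permutation, class differences by exact sign-flip over 6 libraries, and single genes by Fisher's exact test with Benjamini-Hochberg adjustment and a threshold of 0.05. That test was also tested on simulated data. With 2 libraries against 2 no test per gene was made.

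The members and lists were chosen with earlier results of these data known. Named genes are members of 13 family and tissue lists, the 10 genes of highest mean percentile in all 12 lists, the first 8 per antibody or condition pattern by mean percentile, and clusters of 5 or more. The MIR...HG hosts and MIR1973 were named, and the split at 5 kb from a start was added, after seeing the data. Alternatives covered the window, overlap, peak threshold, list length, clusters counted once, gene ends, chromosome parts, cluster distance, host definition, replicate block and each library left out.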

Additional observations from a re-analysis of the deposited data

Results flagged for a closer look

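The fold of microRNA genes over genome bins of equal length moved in opposite directions in the 2 antibodies' lists after ARID1A knockdown. It was lower by 0.394 in siARID1A than in WT cells with anti-YTHDF1 (a difference of -0.394) and higher by 0.981 with anti-ARID1A, and in each case both siARID1A libraries lay on the same side of both WT libraries. The first rests largely on 1 WT library, since it was -0.0688 without WT replicate 2, while the second was 0.907 without that replicate. The difference between these 2 effects was not tested, and each rests on 2 libraries against 2. The share of bins held moved the other way for each antibody. It went from 13.4% in WT to 7.90% in siARID1A cells with anti-ARID1A. With anti-YTHDF1 it went from 5.15% to 5.98%, where the libraries overlapped. Whether the fold moved apart from the breadth of the lists was not tested.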

How the results depend on the processing

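Apart from left-out libraries, 136 alternative values were computed for 18 results, of which 110 kept their direction and side of the threshold or moved by less than 1.5 times. The antibody difference kept its direction and its side of the threshold under each alternative run for it, but was 8.12 points in lists of equal length. The host-gene differences did so under each other than a left-out library, with 3.562 points for anti-YTHDF1 with no flank. The antibody test gave 0 genes under each alternative run for it, which did not include clusters counted once or the replicate block. Its p has a lower limit in each of them, so the 0 is not a sign of stability. Clustered minus single microRNAs passed an unadjusted 0.05 with anti-ARID1A at -2.322 points with no flank, -1.981 with an overlap of 500 bp, -3.442 in the upper 50% of each list and -3.232 in lists of equal length, and turned to 7.52 with 50 kb between neighbours. With anti-YTHDF1 it passed at 2.761 in the upper 50% and 9.655 with 50 kb. In lists of equal length siARID1A minus WT with anti-YTHDF1 turned to -0.5495 points. Without chromosome 2, distal chromosome 9 and distal chromosome 17, YTHDF1-KO minus WT with anti-ARID1A turned to 1.139. The cause was not tested.

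Counts of genes in both lists of a condition and in neither list of its counterpart moved by over 1.5 times as follows. For anti-ARID1A, WT and not YTHDF1-KO gave 23 in the upper 50%, 22 in equal lists, 21 with clusters counted once and 22 without the chromosome parts, YTHDF1-KO and not WT gave 14 in equal lists, WT and not siARID1A gave 65 in equal lists, and siARID1A and not WT gave 5 in equal lists and 1 with no flank, in the upper 50%, without the chromosome parts and without gene ends. For anti-YTHDF1, YTHDF1-KO and not WT gave 9 in the upper 50%, WT and not siARID1A gave 32 in the upper 50% and in equal lists and 11 without gene ends, WT and not YTHDF1-KO gave 23 and siARID1A and not WT gave 22 without gene ends, where fewer genes enter.

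With each library left out in turn the antibody difference ranged from 13.76 to 16.56 points, and the host-gene difference from 5.479 to 6.407 with anti-YTHDF1 and from 7.356 to 7.827 with anti-ARID1A, past no threshold because 5 libraries cannot reach it. Clustered minus single ranged from 0.3262 to 1.221 and from -3.563 to -2.228. The siARID1A minus WT difference with anti-ARID1A ranged from -12.27 to -8.66. YTHDF1-KO minus WT ranged from -6.358 to 1.282 with anti-YTHDF1, positive without WT replicate 1, and from -1.884 to 1.727 with anti-ARID1A, positive without WT replicate 2. The siARID1A minus WT difference with anti-YTHDF1 ranged from -1.596 to 6.044, negative without WT replicate 2. Counts against a lone library ranged for anti-YTHDF1 from 85 to 144 (WT and not YTHDF1-KO), 30 to 93 (YTHDF1-KO and not WT), 56 to 87 (WT and not siARID1A) and 51 to 123 (siARID1A and not WT), and for anti-ARID1A from 58 to 90, 43 to 78, 140 to 197 and 7 to 29 in the same order.

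Replicate numbers only name the libraries, since same-numbered libraries of a condition and WT had deviations correlated across genes by 0.0423, -0.0104, 0.00873 and 0.0303. With the replicate block the antibody difference was 14.83 points (exact sign-flip p = 0.0312) and siARID1A minus WT with anti-ARID1A was -10.47 (exact p = 0.5, the smallest possible). The block changed no other call. With depth unknown, an absent peak is not an absent signal.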

Other observations

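MicroRNA genes were unevenly held over the chromosomes. On chromosome 17, 53.6 ± 6.08% of 110 microRNA genes were held by anti-YTHDF1 and 75.2 ± 7.56% by anti-ARID1A lists (n = 6 libraries each), and 5 genes were in no list. On chromosome 16 the shares were 49.0% and 67.5% of 82 genes, with 21 genes in all 12 lists. On chromosome X 6.50% and 10.6% of 118 genes were held and 79 were in no list, and on chromosome 13 2.92% and 6.25% of 40.

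Other short RNA genes measured with the same window gave 11.2 ± 2.47% and 23.05 ± 4.20% for 1196 snoRNA genes, 38.0 ± 6.03% and 67.5 ± 4.39% for 443 tRNA genes and 45.2 ± 5.14% and 59.7 ± 2.32% for 154 snRNA genes with anti-YTHDF1 and anti-ARID1A in that order, beside 25.7% and 40.6% for microRNA genes. No test was made between these classes. Many of these genes are near-identical copies, which makes the calls at them uncertain.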
